A study of Nicotiana benthamiana with 9 samples.

Results

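The comparison described here sets leaves that received the engineered RNA editing factor dPPRe-rpl2, carried by the vector pGWB2, against leaves that received the P19 silencing suppressor alone. Its members are 6 of the 9 libraries of the series, 3 per group, taken by the names of their count columns, and all 105 plastid rows of the count table enter the counts given. The remaining row of the 106 is the editor transgene, listed as dPPRrpl2, which was kept out of library totals and of normalization. All leaves were Nicotiana benthamiana, labelled as wild type. In the treated group the editor construct was infiltrated together with P19, and in the control group P19 was infiltrated alone, so that P19 was present in all 6 libraries. A pMDC32 group of 3 libraries, which received the same editor with P19 in another vector, is compared once with pGWB2, and its libraries also enter the fit that sets the spread behind each SE and p of pGWB2 against P19. Replicate 1 of each group is labelled 2 days post infiltration (dpi) and replicates 2 and 3 are labelled 3 dpi, although the series text gives 3 dpi throughout. The promoter in front of the editor and the share of leaf cells that received it are not stated in the sources used here. Nuclear genes were not analysed here, so the leaf label could be set only against plastid genes, among which psbA and rbcL, both abundant in green leaves, ranked first and second per length. In whole-leaf RNA, fewer cells of a type and less RNA per cell cannot be told apart.

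Plastids keep a small genome of their own that encodes part of the photosynthetic machinery, ribosomal proteins, ribosomal and transfer RNAs and subunits of a bacterial-type RNA polymerase. Most of these genes are read in polycistronic units, which are then cut, spliced and edited at single cytidines, and the levels of the resulting RNAs depend much on nuclear-encoded RNA-binding proteins. Pentatricopeptide repeat (PPR) proteins are the largest family of such proteins in land plants, each binding a short stretch of organelle RNA, and dPPRe-rpl2 is an engineered member named after rpl2, the gene of a protein of the large ribosomal subunit. The comparison asked whether plastid transcript levels differ once the engineered factor is present.

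Counted plastid reads ranged from 34963332 to 44190592 over the 6 libraries. Values are given as CPM, counts scaled to a common library size with TMM factors over the plastid rows, so that each value is relative to the other plastid rows. A shift common to all of them would not be seen. P19 replicate 1 stood apart: psbA took 61.1% of its plastid counts, against 47.2% and 52.6% in the other P19 libraries and 50.0%, 48.7% and 47.3% with pGWB2. It was also the single P19 library labelled 2 dpi, and its column name gives lane 8, where the other 5 libraries were on lane 4. Day, lane and library therefore cannot be told apart in the P19 group, and the comparison without P19 replicate 1 is also the comparison within lane 4. That comparison is not balanced by labelled day, since pGWB2 keeps its library labelled 2 dpi and P19 keeps none. The range over replicates was wider in P19 than with pGWB2 for 82 of the 105 rows, with a median of 0.68 against 0.27 on the log2 scale. Between P19 replicates 2 and 3 alone the median range was 0.26, but a range over 2 libraries tends to be narrower than one over 3. For 45 rows all 3 pGWB2 values lay inside the P19 range, and for 44 rows P19 replicates 1 and 2 held the highest and the lowest of the 6 values between them.

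The editor transcript separated the groups as the labels have it. P19 replicates 1 to 3 held 0, 11 and 4 reads of it, and the 0 allows up to 0.119 CPM. With pGWB2 it stood at 1228, 4131 and 4262 CPM, lowest in the library labelled 2 dpi. The fitted log2 difference was 14.39 (SE 1.01; Benjamini-Hochberg adjusted p = 8.04e-06, edgeR quasi-likelihood test), and each of the 3 editor libraries exceeded all P19 libraries. Because the P19 counts are so few, the size of that difference rests on them.

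No plastid transcript passed the test between pGWB2 and P19. In the edgeR quasi-likelihood fit, 0 of 105 rows (0%) had a Benjamini-Hochberg adjusted p under 0.05, and the smallest adjusted p was 0.546. An unadjusted p under 0.05 was reached by 7 rows (6.67% of those tested), namely atpB, rps12, rps16, trnT, trnG, psbM and rrn23. These 7 rest in part on the spread shared with pMDC32, since in a fit of the 6 pGWB2 and P19 libraries alone the count was 1 and the smallest adjusted p 0.725 (edgeR). The count was 20 without P19 replicate 2, 1 without pGWB2 replicate 1 and 0 without pGWB2 replicate 2. DESeq2 called 1 row, rpl33 (adjusted p = 0.0412), and limma-voom called 0. The 95% interval of the difference lay within 2-fold in both directions for 90 rows (85.7%), and for 93 (88.6%) when P19 replicate 1 was left out. Of all plastid rows 43 (41.0%) lay above P19 and 62 (59.0%) below it, with a median log2 difference of -0.059 and a range of -0.72 to 0.42. Scaled by total plastid counts without TMM factors, the split was 70 above and 35 below and the median 0.084. Leaving out P19 replicate 1, 47 (44.8%) lay above and 58 (55.2%) below, and 0 rows (0%) passed. In the 3 dpi libraries alone 54 of the 105 rows lay above and 51 below, with a median of 0.0032. Counts above and below P19 in the paragraphs on gene groups are read against these shares, each in its own set of libraries and scaling.

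In 10 rows (9.52%) the libraries of the groups did not overlap, 5 above (4.76%) and 5 below (4.76%). Overlap was read from CPM with TMM factors, and the rows were not counted with other scalings. The factor was 0.722 for P19 replicate 1 and 0.992 to 1.09 for the other libraries of the comparison. Which rows separate can therefore depend on the scaling of that library. Without P19 replicate 1 the number was 17 (16.2%), 10 above (9.52%) and 7 below (6.67%). Leaving out another library gave 34 (P19 replicate 2), 20 (P19 replicate 3), 17, 18 and 20 (pGWB2 replicates 1, 2 and 3). Groups that do not overlap cannot come to overlap when a library is removed, so these counts could only stay or grow and do not bear on stability.

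The higher rows included atpB and atpE, the genes of the beta and epsilon subunits of the ATP synthase, which lie on the same strand and overlap. Transcripts of atpB stood at 3095, 3018 and 3483 CPM in P19 replicates 1 to 3 and at 4501, 4453 and 3848 CPM with pGWB2. Those of atpE stood at 1933, 1624 and 2052 CPM in P19 and at 2456, 2509 and 2098 CPM with pGWB2. For each gene pGWB2 replicate 3 was the lowest of the editor libraries and P19 replicate 3 the highest control, so that the gap between the groups was set by that pair. The log2 differences were 0.42 (SE 0.16) for atpB and 0.33 (SE 0.15) for atpE. Their 95% intervals were 0.059 to 0.77 and -0.011 to 0.68, and without P19 replicate 1 the differences were 0.37 and 0.34.

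The rbcL transcript, for the large subunit of the carbon-fixing enzyme Rubisco, stood at 144698, 141876 and 131787 CPM in P19 and 159065, 156085 and 148372 CPM with pGWB2. The difference was small and among the most precise, 0.15 (SE 0.082), or 0.16 without P19 replicate 1. The rpl33 and rps18 genes, for proteins of the large and small ribosomal subunits, are neighbours on the same strand. For rpl33 the P19 libraries held 391, 366 and 404 CPM and the pGWB2 libraries 459.8, 452 and 506 CPM, a difference of 0.29 (SE 0.13). For rps18 the values were 753, 703 and 722 CPM against 762, 779 and 896 CPM, a difference of 0.16 (SE 0.14). In both genes pGWB2 replicate 3 was the highest library, and for rps18 the lowest editor library lay just above the highest P19 library.

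The 5 lower rows were rps12, 3 transfer RNAs and rrn16. The rps12 row, for a small subunit protein whose RNA is joined from separate pieces by trans-splicing, held 121323, 113498 and 111827 CPM in P19 and 89907, 100875 and 104205 CPM with pGWB2, a difference of -0.23 (SE 0.090). As a share of plastid counts the rps12 row took 8.76%, 12.3% and 11.1% in P19 and 9.21%, 10.5% and 11.2% with pGWB2. On that scale the groups overlapped and P19 replicate 1 was the lowest library. That row spans 70359 nt (71935 to 142293) and other genes lie inside it, so its reads need not be those of rps12. Among transfer RNAs, trnC stood at 108, 95.8 and 91.6 CPM against 74.20, 80.02 and 87.01 CPM, a difference of -0.29 (SE 0.17). The trnT row held 45.8, 46.6 and 39.7 CPM against 36.3, 31.2 and 36.0 CPM (-0.35, SE 0.15), and trnN 69.9, 64.2 and 59.3 against 46.7, 52.2 and 52.4 CPM (-0.35, SE 0.18). For rrn16, the RNA of the small ribosomal subunit, P19 held 287, 154 and 161 CPM and pGWB2 70.8, 146 and 148 CPM, a difference of -0.72 (SE 0.37). The lowest of these rrn16 values was pGWB2 replicate 1 and the highest P19 replicate 1, the libraries labelled 2 dpi, while the 3 dpi libraries lay close together. Ribosomal RNA was removed before library making, and how far the removal differed between libraries was not tested.

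**Figure D1:**
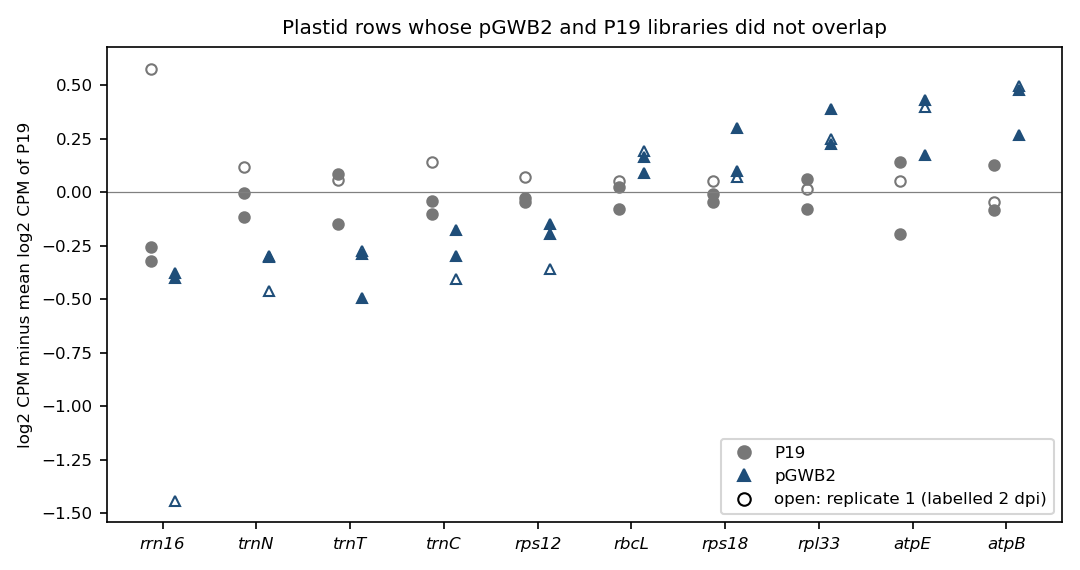
Points give the log2 CPM of each library minus the mean log2 CPM of the P19 libraries (vertical axis) for the 10 plastid rows whose groups did not overlap (horizontal axis, ordered by log2 difference); grey circles are P19, blue triangles pGWB2, open symbols replicate 1. The atpB and atpE points of pGWB2 lie above all their P19 points, and rrn16 is spread mainly by the open symbols.

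The target named in the editor, rpl2, did not pass the test. Row counts give transcript levels only, and editing of rpl2 RNA was not measured here. Its transcript (154104 to 155605, plus strand; the build of the plastid sequence is not stated in the sources used here) stood at 669.6, 1174 and 993 CPM in P19 replicates 1 to 3 and at 1009.6, 1005 and 1167 CPM with pGWB2. The groups overlapped, since P19 replicate 2 was the highest library and P19 replicate 1 the lowest. The difference was 0.17 (SE 0.24), with a 95% interval of -0.36 to 0.69, and it was -0.049 without P19 replicate 1. Upstream on the same strand, rpl23, for another protein of the large subunit, stood at 172, 307 and 270.4 CPM against 264, 271 and 314 CPM, a difference of 0.18 (SE 0.21) that was -0.046 without that library. The trnI row before it, for an isoleucine transfer RNA, held 50.6, 95.4 and 67.6 CPM against 53.4, 59.2 and 70.5 CPM (-0.22, SE 0.23). For rpl23 the 95% interval was -0.30 to 0.66. In the 3 dpi libraries alone, where the groups share the labelled day, rpl2 differed by 0.031 and rpl23 by 0.047.

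Photosystem II, the complex that splits water, had 3 of 15 transcripts above P19 and 12 below, a median of -0.23 against -0.059 over all plastid rows. When P19 replicate 1 was left out, 11 of 15 lay above and the median was 0.049, and with scaling by total counts 10 of 15 lay above. Measured from the median of all rows, the group median was -0.17 with TMM factors and -0.075 with total counts. P19 replicate 1 was the highest of the 6 libraries for 12 of the 15 genes, and P19 replicate 2 the lowest for 10. For psbA, the gene of the D1 reaction centre protein, the P19 libraries held 846546, 434149 and 530523 CPM and the pGWB2 libraries 487926, 468855 and 440484 CPM. That is a difference of -0.37 (SE 0.21), which was -0.071 without P19 replicate 1. The lowest difference belonged to psbM, for a small subunit, at 6320.4, 4252 and 3418 CPM against 3627, 2694 and 3368 CPM (-0.53, SE 0.23; -0.27 without P19 replicate 1). The highest belonged to psbN, an assembly factor encoded on the opposite strand to its neighbours, at 989, 1003 and 1224 CPM against 1304, 1119 and 1314 CPM (0.22, SE 0.15). The core antenna gene psbB and the D2 gene psbD had differences of 0.059 (SE 0.13) and -0.16 (SE 0.16), and the psbC antenna gene -0.13 (SE 0.13).

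Photosystem I genes lay on both sides of P19. The reaction centre genes psaA and psaB stood above P19, at 6305, 7630.2 and 10311 CPM against 8387, 12019 and 9718 CPM for psaA (0.31, SE 0.20) and at a difference of 0.27 (SE 0.19) for psaB. Both had their highest library in pGWB2 replicate 2 and overlapped between groups. The shorter psaC, psaI and psaJ lay below, at -0.35 (SE 0.24), -0.32 (SE 0.25) and -0.30 (SE 0.29), each with its highest value in P19 replicate 1. Without that library the differences were 0.14, 0.11, -0.069, 0.032 and 0.14 in the order named, so that 4 of 5 lay above P19 in place of 2 of 5. The assembly factor genes ycf3 and ycf4 differed by 0.0022 (SE 0.15) and 0.28 (SE 0.18), and ycf3 changed sign with upper quartile scaling.

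Cytochrome b6f, which links the photosystems, had 1 of 6 transcripts above P19 (petA, for cytochrome f, 0.11 (SE 0.16)) and a median of -0.23. The lowest was petN, for a small subunit, at 4291, 1480.4 and 1919 CPM in P19 and 2144, 2105 and 1729 CPM with pGWB2, -0.36 (SE 0.34). P19 replicate 1 held the highest value of 5 of the 6 genes. Without it petN differed by 0.21, and 5 of 6 genes lay above P19 with a median of 0.058. With scaling by total counts 3 of 6 lay above.

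ATP synthase genes lay mostly above P19 with and without the library that stood apart. Of the 6, 5 lay above, with a median of 0.23 and a range of -0.017 to 0.42, and without P19 replicate 1 all 6 did, with a median of 0.25. Over all plastid rows the medians were -0.059 and -0.019. The exception was atpH, for the membrane ring subunit c, at 3497, 3262 and 2963 CPM against 3105, 3324 and 3179 CPM (-0.017, SE 0.13), which turned to 0.024. For atpA, of the alpha subunit, P19 held 2935, 4791 and 4082 CPM and pGWB2 5403, 4592 and 4707 CPM, 0.32 (SE 0.20), with P19 replicate 1 the lowest. The remaining members atpF and atpI, for membrane subunits, differed by 0.14 (SE 0.14) and 0.13 (SE 0.19), and P19 replicate 1 was the highest P19 library for each. As a share of plastid counts the 6 genes took 1.40%, 2.06% and 1.87% in P19 and 2.45%, 2.29% and 2.22% with pGWB2, without overlap. That was not particular to the ATP synthase. The rbcL shares, 10.4%, 15.4% and 13.1% against 16.3%, 16.2% and 15.9%, did not overlap either. Nor did those of all protein-coding rows other than psbA and rps12. No ATP synthase gene passed the test over all rows.

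The NDH complex, which feeds electrons back into the photosynthetic chain, had 4 of 11 transcripts above P19 and a median of -0.11. The genes ndhJ, ndhK and ndhC, adjacent on the minus strand, differed by -0.28 (SE 0.34), -0.29 (SE 0.37) and -0.32 (SE 0.29). For ndhC, P19 held 505, 1269.5 and 784 CPM and pGWB2 746, 599 and 709 CPM, so that P19 replicates 1 and 2 were the lowest and highest of the 6. In the analysis without P19 replicate 1 the 3 genes differed by -0.59, -0.64 and -0.60, and each had an unadjusted p under 0.05, with 0 Benjamini-Hochberg adjusted p under 0.05. Of the 105 rows 8 (7.62%) reached an unadjusted p under 0.05 in that analysis. Without P19 replicate 2 the ndhJ and ndhC differences turned to 0.25 and 0.088. At the other end, ndhH stood at 279, 481 and 421 CPM against 650.0, 487 and 448 CPM (0.42, SE 0.23), highest in pGWB2 replicate 1, and ndhB at 3124, 2307 and 2798 CPM against 3634, 3199 and 2838 CPM (0.23, SE 0.17). With scaling by total counts 7 of the 11 lay above P19.

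Ribosomal protein genes lay above P19 in 7 of 9 cases for the large subunit and 8 of 12 for the small subunit, with medians of 0.22 and 0.14. In the absence of P19 replicate 1 these counts were 1 of 9 and 4 of 12 and the medians -0.049 and -0.059. In the 3 dpi libraries alone they were 4 of 9 and 5 of 12, with medians of -0.0034 and -0.032. P19 replicate 1 was the lowest of the 6 libraries for 6 of the 9 and 7 of the 12 genes. In the large subunit the lowest difference was that of rpl32 at -0.29 (SE 0.22), or -0.011 without P19 replicate 1, and the highest that of rpl33. In the small subunit rps16 was lowest, at 2153, 3644 and 2444 CPM against 1584, 1807 and 2248 CPM, -0.55 (SE 0.22). Its groups did not overlap without P19 replicate 1, where the difference was -0.71 (Benjamini-Hochberg adjusted p = 0.200, edgeR quasi-likelihood test). The highest was rps7, at 864, 1331 and 1146 CPM against 1652, 1488 and 1328 CPM, 0.42 (SE 0.19), where P19 replicate 1 was lowest and P19 replicate 2 lay just above pGWB2 replicate 3.

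The 4 genes of the plastid-encoded RNA polymerase had differences from -0.11 (SE 0.41) for rpoC1 to 0.12 (SE 0.28) for rpoB, with a median of 0.020. All 4 were lowest in P19 replicate 1 and highest in P19 replicate 2. For rpoC1, of the beta prime subunit, P19 held 224, 954 and 557 CPM and pGWB2 471, 545 and 595 CPM. With that library left out the 4 lay below P19 with a median of -0.23, and with upper quartile scaling of all libraries the median was -0.049. The differences of the other protein genes ranged over -0.18 to 0.35. Of these, accD for a subunit of acetyl-CoA carboxylase differed by -0.053 (SE 0.17) and the protease gene clpP1 by -0.093 (SE 0.15). The heme attachment gene ccsA differed by -0.18 (SE 0.23), and matK, for the intron maturase, by 0.35 (SE 0.20). The trnK row contains matK and the reads of these rows cannot be separated, and trnK differed by 0.34 (SE 0.18). Of the 9 other protein genes 4 lay above P19, and with scaling by total counts 9 of 9.

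Ribosomal RNA rows lay below P19 in 4 of 4 cases, with a median of -0.62, and without P19 replicate 1 again in 4 of 4, with a median of -0.50. All 4 were lowest in pGWB2 replicate 1. For rrn23, of the large subunit, P19 held 938, 394 and 446 CPM and pGWB2 298, 413 and 388 CPM, -0.69 (SE 0.31), which was -0.21 without P19 replicate 1. The shorter rrn4.5 and rrn5, also of the large subunit, were counted at no more than 11.2 CPM in the 6 libraries and differed by -0.54 (SE 0.56) and -0.52 (SE 0.28). In the 3 dpi libraries alone the 4 rows had a median of -0.18.

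Transfer RNA rows lay below P19 in 17 of 21 cases, with a median of -0.22, and in 17 of 21 without P19 replicate 1. With scaling by total counts 12 of 21 lay below, with a median of -0.046. Measured from the median of all rows, the group median was -0.16 with TMM factors and -0.13 with total counts. In the 3 dpi libraries alone 12 of 21 lay below, with a median of -0.032. The lowest was trnR, for an arginine transfer RNA, at 202, 258 and 198 CPM against 84.0, 141 and 203 CPM (-0.62, SE 0.33). Of the editor libraries pGWB2 replicate 3 lay within the P19 range, and pGWB2 replicate 1 was the lowest. The trnA row, for alanine, had the same order of editor libraries, at 4675, 6398 and 5701 CPM against 2322, 4136 and 5846 CPM (-0.45, SE 0.29). For trnG the values were 42.8, 47.0 and 37.5 CPM against 20.8, 27.9 and 38.1 CPM (-0.55, SE 0.24), overlapping through pGWB2 replicate 3.

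**Figure D2:**
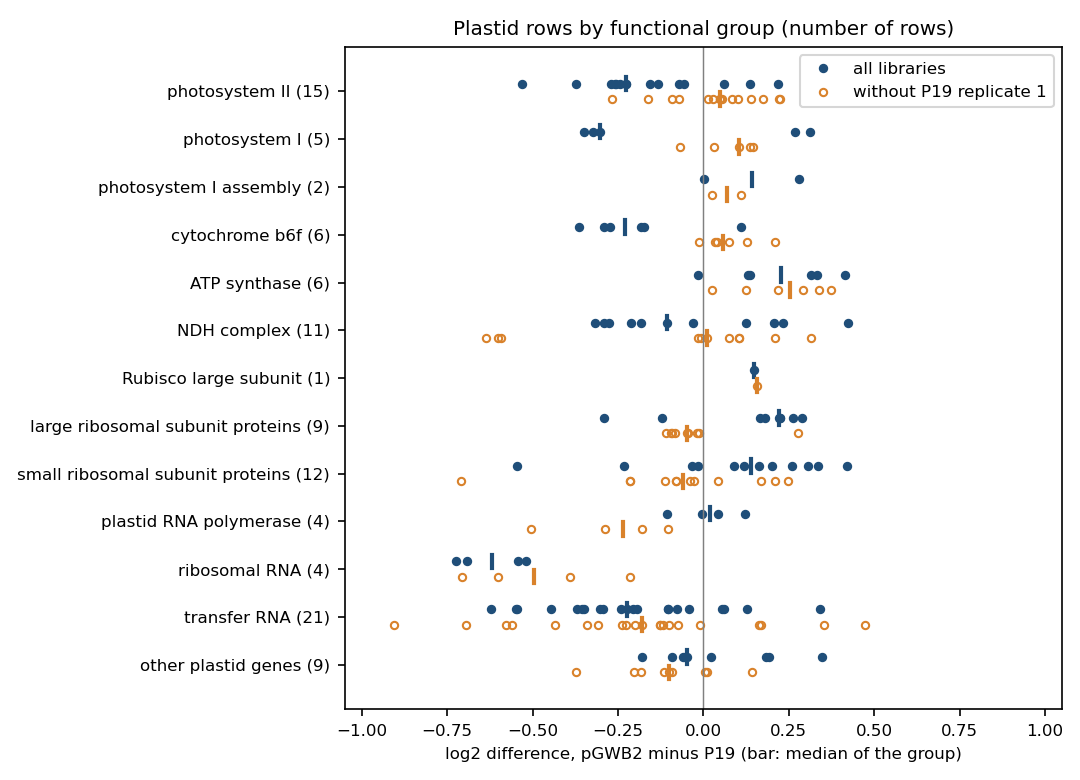
Each point is the log2 difference of pGWB2 from P19 (horizontal axis) of a plastid row, by functional group with its number of rows (vertical axis); filled blue points use all libraries, open orange points leave out P19 replicate 1, and bars are group medians. The ATP synthase medians are 0.23 and 0.25, with atpH close to 0, whereas photosystem II and the ribosomal protein groups change sides when P19 replicate 1 is left out.

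Shares of plastid counts by RNA class were compared with a test that cannot reach 0.05 at this number of libraries. The psbA share was 53.7% ± 7.0 in P19 and 48.7% ± 1.36 with pGWB2 (SD, n = 3 each, two-sided exact permutation p = 0.4). Protein-coding rows other than psbA and rps12 took 28.9%, 37.9% and 34.3% in P19 and 38.9%, 38.8% and 38.9% with pGWB2. These did not overlap (two-sided exact permutation p = 0.1, adjusted 0.25 over 5 classes), and p = 0.1 is the smallest that 3 against 3 libraries can give. The difference of 5.17 percentage points was 2.74 without P19 replicate 1. Ribosomal RNA took 0.0890%, 0.0603% and 0.0615% against 0.0381%, 0.0585% and 0.0587% (exact permutation p = 0.1, adjusted 0.25). Its difference of -0.0185 points was -0.00912 without P19 replicate 1. Transfer RNA rows took 1.83% ± 0.63 in P19 and 2.12% ± 0.36 with pGWB2 (exact permutation p = 0.5, adjusted 0.625). The trnK row, which contains matK and lay above P19, had the highest CPM of these rows. The rps12 row took 10.7% ± 1.8 and 10.3% ± 1.0 (exact permutation p = 0.8, adjusted 0.8).

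Per length, plastid transcripts covered a wide range with pGWB2. CPM per kilobase was 438564 ± 22479 for psbA, 107746 ± 3848 for rbcL, 67130.3 ± 3854 for psbL and 64916 ± 3856 for psbF (SD, n = 3). The psbL and psbF means, of small photosystem II subunits encoded side by side, lay closer together than either SD. Both were measured in the same libraries, so that spread cannot decide whether they differ, and this was not tested. The psbA and rbcL levels stood apart from each other and from them. Among protein genes the low end held rpoB at 133 ± 4.69, rpoC2 at 179 ± 18.4 and ycf2, the gene of a large protein of the plastid import motor, at 179 ± 25.1. The transgene, by its listed length of 2834 nt, stood at 1132 ± 605, and rpl2 at 706 ± 61.5 on the same scale. The order of psbA, rbcL, psbL and psbF was the same in P19, at 568493, 97248, 79535 and 77718. Rows that contain introns or other genes have no clean length, and rps12 was left out of the ranking.

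Differences of neighbouring rows were compared by strand. Rows were ordered by start, without rps12, and successive rows at most 500 nt apart were paired. The 57 same-strand pairs had log2 differences that lay 0.093 apart in the median, against 0.17 for 15 opposite-strand pairs and 0.27 over the 5356 pairs of all rows. The sign was shared by 43 of 57 same-strand and 10 of 15 opposite-strand pairs. Leaving out P19 replicate 1 gave medians of 0.068, 0.19 and 0.22, and the sign was shared by 49 of 57 and 10 of 15. Across the 57 same-strand pairs the differences correlated at Pearson r = 0.66 and Spearman rho = 0.62, and at 0.75 and 0.78 without P19 replicate 1. For the 15 opposite-strand pairs Pearson r was 0.44 and 0.58. The lower correlation of opposite-strand pairs depended on the gap allowed. With gaps up to 1000 nt Pearson r was 0.65 for 65 same-strand and 0.60 for 20 opposite-strand pairs, and 0.68 and 0.71 without P19 replicate 1. At that gap the sign was shared by 49 of 65 and 15 of 20 pairs, and the median distances were 0.10 and 0.19. These are descriptions, since pairs share rows and libraries and some neighbours share reads, and the difference between the kinds of pair was not tested.

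**Figure D3:**
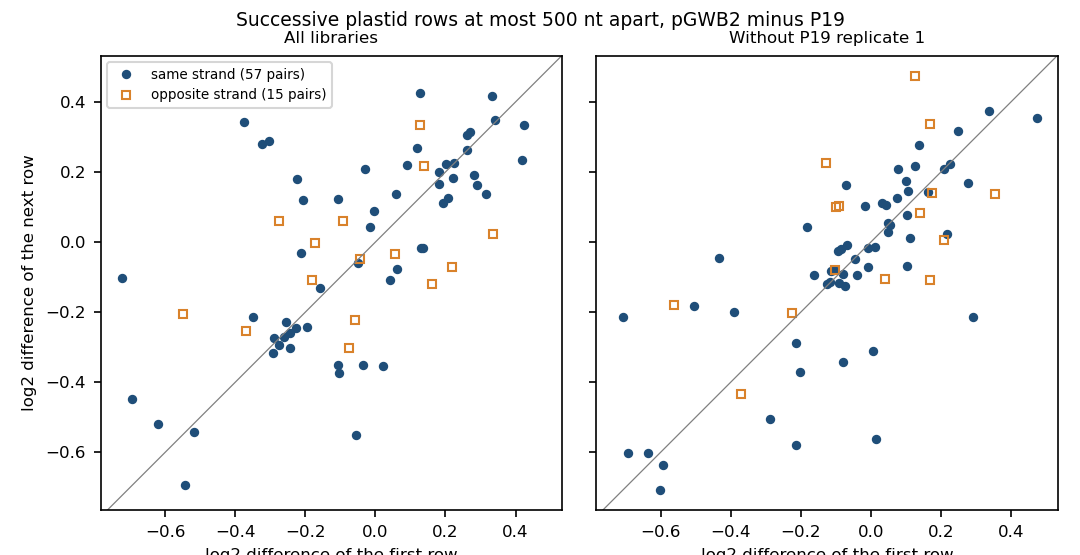
Each point is a pair of successive plastid rows at most 500 nt apart, with the log2 difference of pGWB2 from P19 of the first row (horizontal axis) and of the next row (vertical axis), with all libraries (left) and without P19 replicate 1 (right). Filled circles are 57 same-strand pairs, open squares 15 opposite-strand pairs, and the line marks equal values, near which most filled circles lie.

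Successive rows on 1 strand formed 14 runs of 3 or more rows, with 59 rows in all. In 5 runs every row had the same sign, and without P19 replicate 1 in 9. The genes from rpoA to rpl16 and from rps3 to rps19, mostly of ribosomal proteins, form adjacent runs of the minus strand. The first had 6 of 7 rows above P19 (-0.0034 to 0.22) and the second 3 of 3 (0.26 to 0.31), the highest being rps19 at 60.9, 168 and 129 CPM against 150.3, 148 and 144 CPM (0.31, SE 0.31). All 10 genes were lowest in P19 replicate 1 and highest in P19 replicate 2. With P19 replicate 1 left out, all 10 lay below P19, from -0.12 (infA, for an initiation factor) to -0.019 (rpl16). Each of these differences was smaller than its SE, which ranged from 0.13 (rpoA) to 0.18 (rps3). In the 3 dpi libraries alone rpl16 and rps19 lay above P19, at 0.038 and 0.0050, and the others below it.

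The run of psbJ, psbL, psbF and psbE, small photosystem II subunits that include cytochrome b559, ranged over -0.27 to -0.23. Its 4 rows were highest in P19 replicate 1 and lowest in P19 replicate 2, for psbE at 16711, 8721 and 10468 CPM against 9341, 10356 and 10080.5 CPM. Leaving that library out, the range was 0.029 to 0.054. The run of ndhJ, ndhK and ndhC ranged over -0.32 to -0.28 and kept its sign without that library (-0.64 to -0.59). The run from trnR to trnA, which holds rrn5, rrn4.5 and rrn23 of the ribosomal RNA operon, lay at -0.69 to -0.45 with all libraries and at -0.71 to -0.21 without P19 replicate 1. Its 5 rows were lowest in pGWB2 replicate 1, and in the 3 dpi libraries alone the range was -0.41 to -0.044.

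Other runs held rows on both sides of P19. The 8 rows from ndhD to rps15 went from -0.35 at psaC to 0.42 at ndhH, with 4 of 8 above P19. Along this run P19 replicate 1 was the highest library for ndhD, psaC and ndhE and the lowest for 4 others, while pGWB2 replicate 1 was the highest for 5. Without P19 replicate 1 the range was -0.069 to 0.21. In the run of atpI, rps2, rpoC2, rpoC1 and rpoB the genes differed by 0.13, -0.016, 0.043, -0.11 and 0.12. After removal of P19 replicate 1 atpI stood at 0.29 and the other 4 at -0.51 to -0.18. The psaI, ycf4, cemA and petA run began with psaI at -0.32 and went on with 0.28, 0.19 and 0.11. The psaJ, rpl33 and rps18 run likewise began with the photosystem gene below P19 (-0.30) and the ribosomal genes above it (0.29 and 0.16). In both runs the first gene was highest in P19 replicate 1, and without it psaI and psaJ stood at 0.032 and 0.14.

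The remaining runs were short. The trnD, trnY and trnE genes, for transfer RNAs of aspartate, tyrosine and glutamate, differed by -0.20, -0.24 and -0.30. The atpA, atpF and atpH run went from 0.32 to -0.017. Along trnfM, rps14, psaB and psaA the differences were -0.21, 0.12, 0.27 and 0.31. The run of trnH, psbA, trnK and matK joined psbA at -0.37 with trnK and matK at 0.34 and 0.35, and trnH stood at -0.10. In trnI, rpl23 and rpl2 the transfer RNA lay below P19 and the ribosomal genes above it, and without P19 replicate 1 all 3 lay below.

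**Figure D4:**
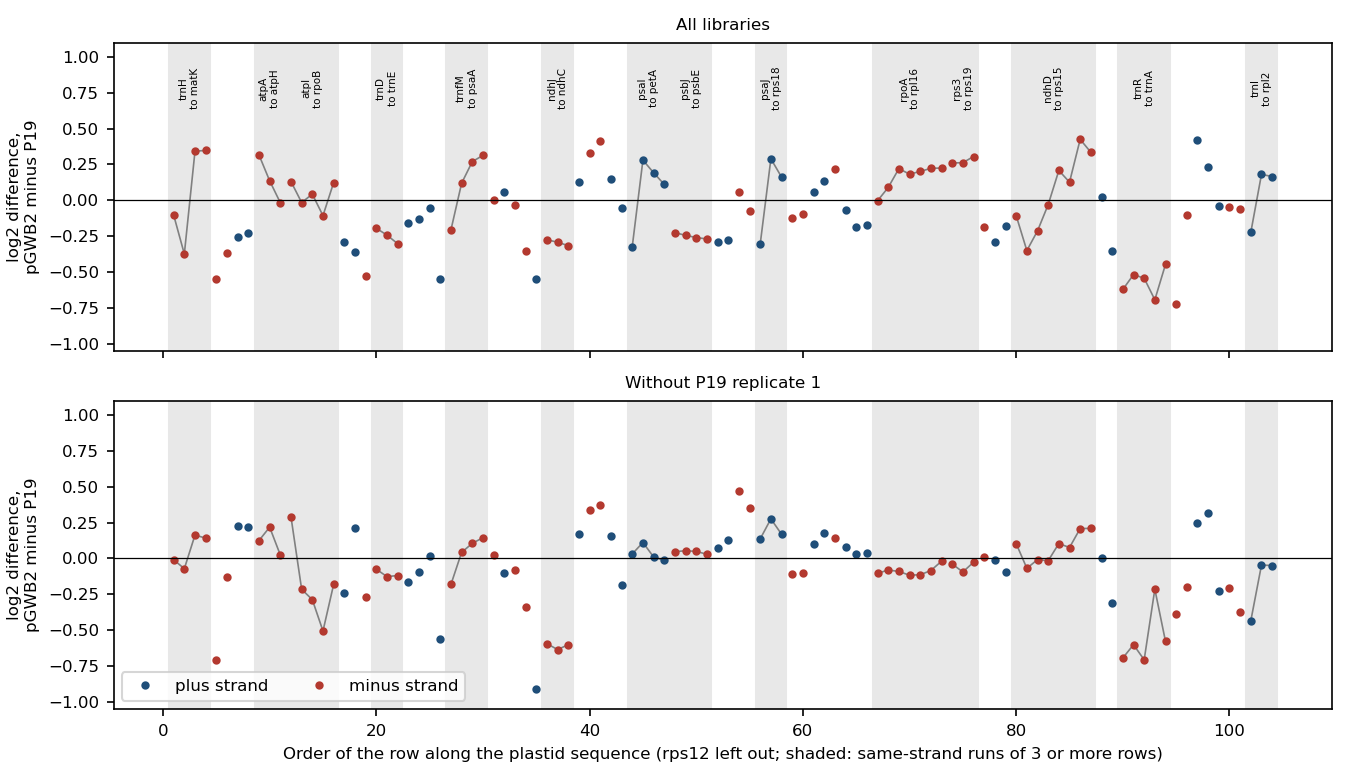
The log2 difference of pGWB2 from P19 (vertical axis) of 104 plastid rows in their order along the plastid sequence (horizontal axis, rank and not position), with all libraries (top) and without P19 replicate 1 (bottom); blue is the plus and red the minus strand, and shaded rows joined by a line form same-strand runs of 3 or more. The block from rpoA to rps19 lies above 0 at the top apart from rpoA and below 0 at the bottom, and the ndhJ to ndhC block is lower at the bottom.

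**Figure D5:**
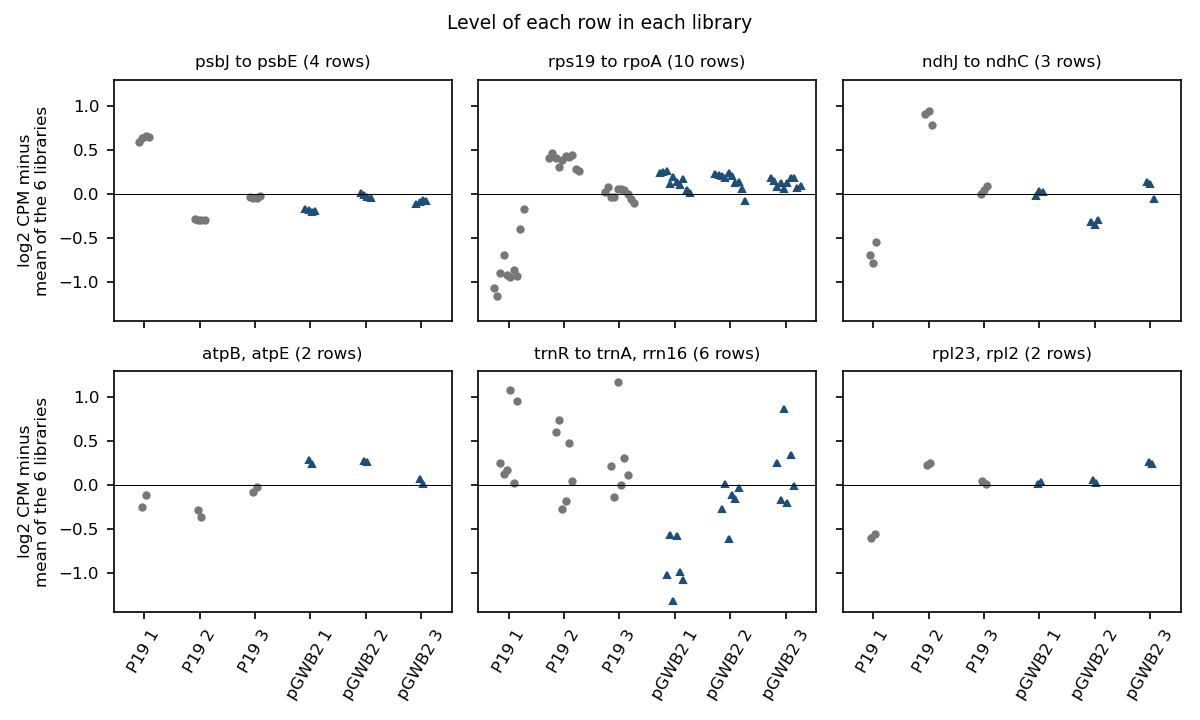
Level of each row in each of the 6 libraries (horizontal axis) as log2 CPM minus its mean over the libraries (vertical axis), for 6 groups of neighbouring rows; grey circles are P19 and blue triangles pGWB2, with rows of a group side by side. P19 replicates 1 and 2 take opposite ends for the psbJ to psbE, rps19 to rpoA and ndhJ to ndhC rows, and the pGWB2 libraries lie mostly between them.

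The pGWB2 and pMDC32 leaves, which share the P19 controls, were set against each other directly. The 3 pGWB2 libraries were on lane 4 and the pMDC32 libraries on lanes 8, 8 and 5, so vector and lane cannot be told apart in this comparison. In the edgeR quasi-likelihood fit, 0 of 105 rows (0%) passed after Benjamini-Hochberg adjustment, an unadjusted p under 0.05 was reached by 0 (0%), and DESeq2 called 0. The interval of the difference lay within 2-fold for 100 rows (95.2%). In a fit of the 6 editor libraries alone petL, for a small cytochrome b6f subunit, passed (Benjamini-Hochberg adjusted p = 0.0483, edgeR). Against P19, petL stood at -0.29 with pGWB2 and -0.80 with pMDC32, atpB at 0.42 and 0.36, rpl2 at 0.17 and 0.33, and rps12 at -0.23 and -0.15. The difference of pGWB2 from pMDC32 was 0.057 (SE 0.16) for atpB and -0.16 (SE 0.24) for rpl2.

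A term for the labelled day in the difference from P19 was fitted after P19 replicate 1 had been seen to stand apart, so it is no independent test and cannot tell day from lane or library. It passed for rrn23 and rrn16, 2 of 105 rows (1.90%), while 40 rows (38.1%) had an unadjusted p under 0.05. Each group holds 1 library labelled 2 dpi, and that of P19 is P19 replicate 1. In the 3 dpi libraries alone, 0 rows passed with Benjamini-Hochberg adjustment in edgeR and 4 had an unadjusted p under 0.05.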

How the data were processed

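Leaf RNA depleted of ribosomal RNA was made into directional libraries by dUTP marking, per the labels' protocols. The authors deposited raw read counts for each row. The submitters' processing notes list, with no roles, DESeq2 1.42.0, featureCounts 2.0.1, HISAT2 2.2.1, Trim Galore 0.6.10 and FastQC 0.12.1. The build, strand setting and treatment of multiply mapped reads are not stated in the sources used here.

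Groups were compared in R 4.3.3 with edgeR 4.0.16 (quasi-likelihood test, all 9 libraries in a single fit, library totals and TMM factors over the 105 plastid rows, filterByExpr, which 106 of 106 rows passed). P-values are two-sided and were adjusted by the Benjamini-Hochberg method over 106 rows, with a threshold of 0.05. Alternatives used other scalings, DESeq2 1.42.0, limma 3.58.1 (voom), other sets of libraries, a replicate block and the labelled day. Replicate pairs differed by more than sampling noise (chi-square over degrees of freedom from 1359 to 21246); the series text calls them biological replicates, and p-values measure the spread between these libraries. Floors of 3 counts cover counting error only.

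Gene groups were set by name prefix, runs by row order, strand and gaps of at most 500 nt. Named rows are rpl2, rpl23 and their run, the 10 smallest p, the extremes of each group and run, rows without overlap whose difference exceeded 0.3, and further members given with their values. Members and lists were chosen with earlier results of these data known.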

Additional observations from a re-analysis of the deposited data

Results flagged for a closer look

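In 2 plastid rows the replicate 1 libraries, labelled 2 dpi, differed more between pGWB2 and P19 than the libraries labelled 3 dpi. The interaction term was added after P19 replicate 1 had been seen to stand apart, so it describes that library again and is no test of a day effect. In the edgeR quasi-likelihood fit rrn23 and rrn16 passed (Benjamini-Hochberg adjusted p = 0.0300 for each), 2 of 105 (1.90%), and 40 rows (38.1%) had an unadjusted p under 0.05. At 2 dpi the pGWB2 library held 298 CPM of rrn23 and the P19 library 938 CPM, and of rrn16 70.8 and 287 CPM, where each group has 1 library. The log2 difference at 2 dpi minus that at 3 dpi was -1.59 (SE 0.23) for rrn23 and -1.92 (SE 0.31) for rrn16. At 3 dpi alone the differences were -0.044 and -0.075. The 2 dpi control is P19 replicate 1, on lane 8, so day, lane and library cannot be told apart, and the SE assumes that single libraries vary like the 3 dpi pairs. With 3 libraries a group, no library was tested as an outlier.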

How the results depend on the processing

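The count of plastid rows past the test stayed at 0 in 17 of 18 alternatives and was 1 with DESeq2 (rpl33). Between the vectors it was 1 in the fit of the 6 editor libraries and 0 in the other 8. Leaving out 1 library at a time, the count against P19 stayed at 0 and the rows without overlap, counted in a check added after seeing the data, from 17 to 34, against 10 with all 6. The transgene passed in 18 of 18 alternatives (log2 difference 13.94 to 15.54), and rpl2 in 0 of 18 (-0.049 to 0.35, lowest without P19 replicate 1; adjusted p 0.304 to 0.982). Of 900 values of named genes under alternatives 842 kept sign and side of the threshold, 57 turned sign and 1 (rpl33, DESeq2) passed. The turns by setting were, as log2 differences: RLE factors, atpH 0.0019, rpoA 0.013; upper quartile, ycf3 -0.036; total counts, trnD 0.0024, psbJ 0.0025, atpH 0.16, rpoA 0.13, ccsA 0.0069; no rRNA or tRNA rows in the scaling, ycf3 -0.046; DESeq2, atpH 0.0019, rpoA 0.013; limma-voom, ycf3 -0.0062, rpoC1 0.088; the 6 libraries alone, ycf3 -0.0091; labelled day as covariate, rpoC1 0.013, rpoA 0.00078; 3 dpi libraries alone, trnfM 0.052, trnD 0.0016, psaJ 0.084, psbE 0.11, psbJ 0.13, psaI 0.011, petN 0.20, atpH 0.090, petA -0.026, rpoB -0.11, psaC 0.014, ccsA 0.075, rps3 -0.035. The cause was not tested. With 1 library left out, values that turned ranged as follows: trnI -0.43 to 0.046, rpl23 -0.046 to 0.36, rps19 -0.026 to 0.63, psaJ -0.55 to 0.14, psbE -0.45 to 0.029, psbJ -0.40 to 0.048, psaI -0.52 to 0.032, ndhJ -0.59 to 0.25, petN -0.64 to 0.21, atpH -0.077 to 0.054, rpl2 -0.049 to 0.35, ycf3 -0.052 to 0.067, petA -0.013 to 0.22, atpI -0.010 to 0.29, rpoB -0.18 to 0.42, rpoC1 -0.51 to 0.46, ndhC -0.60 to 0.088, rpoA -0.10 to 0.14, rps3 -0.039 to 0.58, rpl16 -0.019 to 0.47. Of 252 group medians under alternatives 237 moved by less than the spread between replicates. That spread includes P19 replicate 1, so a median could turn sign and still count as unmoved. Photosystem II did so in the 3 dpi libraries alone, from -0.23 to 0.13, and the count is no measure of stability. In those libraries 4 medians moved: photosystem I 0.084, cytochrome b6f 0.072, large ribosomal subunit proteins -0.0034 and small ones -0.032.

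Same-numbered P19 and pGWB2 libraries deviated from their group means with correlations over 105 rows of 0.088, -0.37 and 0.14. Differently numbered libraries gave -0.29 to 0.30. With 3 libraries a group these values cannot decide whether the numbers pair the libraries, and same-numbered libraries share the labelled day. With the replicate number as a block 0 plastid rows passed, rpl2 differed by 0.20 and the transgene by 14.52, and the sign turned for ycf3 -0.0041, rpoC1 0.059, rpoA 0.0046. With gaps up to 250 nt, 44 same-strand pairs lay 0.082 and 9 opposite-strand pairs 0.20 apart in the median. Pearson r was 0.75 and 0.42 and Spearman rho 0.74 and 0.18. Without P19 replicate 1 Pearson r was 0.76 and 0.66, so the gap between the kinds of pair changed with 1 library. The values up to 1000 nt, where the correlations came close or changed order, are given with the neighbour pairs above. The no-filter analysis tests the same 106 rows. The median SE of 0.20 over plastid rows comes from 3 libraries a group.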

Other observations

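Genes read by the nuclear-encoded, phage-type RNA polymerase (rpoB, rpoC1, rpoC2, accD, clpP1, ycf1 and ycf2), some of them also by the plastid-encoded enzyme, had 3 of 7 members above P19 and a median of -0.053. Leaving out P19 replicate 1 gave 1 of 7 and a median of -0.18, and with scaling by total counts 6 of 7 lay above. For ycf2 the P19 libraries held 697, 1958 and 1182 CPM and the pGWB2 libraries 1238, 1051 and 1394 CPM (-0.059, SE 0.32). Of the 7 genes 6 were highest in P19 replicate 2 and 4 lowest in P19 replicate 1.

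Row length went with the difference while P19 replicate 1 was included. Of 26 protein-coding rows shorter than 300 nt, 18 lay below P19 (median -0.23), against 22 of 53 longer rows (median 0.089), and over the 79 rows log2 length and log2 difference had a Spearman rho of 0.29. Without P19 replicate 1 the counts were 8 of 26 and 28 of 53 and rho was -0.17. These values are descriptions across rows of the same libraries.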
